A study of Homo sapiens with 2 samples.

Results

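Peaks of TP73 enrichment were examined at 3 long non-coding RNA genes, NEAT1, MALAT1 and PVT1, and at the MYC gene, in TL-Om1 cells, a line established from adult T-cell leukaemia. A peak was taken when its summit, the position of highest ChIP signal, lay in the gene span on hg19 or within 20 kb of it. Of 18908 peaks in the authors' list, 20 (0.106%) met this rule: 5 at NEAT1, 8 at MALAT1, 7 at PVT1 and 0 at MYC. The genes were chosen partly on the −log10 q-values of this list, since its second-ranked peak lies just before NEAT1, so the ranks, folds and counts below describe these positions and carry no test.

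The study has 2 libraries from TL-Om1 cells. Chromatin of the ChIP library was cross-linked for 10 min and precipitated with an antibody against TP73 (ab14430). The other library is labelled as whole cell extract, the background. All 18908 peak names hold the text IgG, so which control lies behind the folds and backgrounds below is not settled. The labels name no genetic change or treatment. Each group is 1 library of 1 cell line, so no value has a replicate error. The labelled cell type was not checked against marker levels, since peaks hold no expression values.

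TP73 (p73) is a transcription factor of the p53 family, whose members bind DNA as tetramers at related response elements and activate genes of growth arrest and cell death. NEAT1 is the RNA scaffold of paraspeckles, nuclear bodies that hold RNA-binding proteins, and is known as a transcriptional target of p53. MALAT1 is an abundant nuclear RNA of speckles that lies next to NEAT1, and PVT1 is a long RNA gene beside MYC, also known to be bound and induced by p53. MYC encodes a transcription factor that drives growth and proliferation and is often deregulated in lymphoid malignancy. In the RefSeq gene order the 4 genes form 2 neighbourhoods: NEAT1 and MALAT1 share a chromosome, with FAUP4, ENEMAL and LINC02736 between them, and PVT1 follows MYC on another. NEAT1 contains MIR612, and PVT1 contains several microRNA genes, among them MIR1204.

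A strong MALAT1 peak reached over the start of the gene span, so the sequences around the MALAT1 starts are shown. In the RefSeq table of start sequences (GRCh38.p14, 250 bases before to 50 after each start), 1 of the 4 genes matched, MALAT1, with 2 starts on the plus strand. NEAT1, PVT1 and MYC did not match. The upstream start lies in chr11:65497488-65497787 and the downstream start in chr11:65498795-65499094, both on GRCh38.p14. These positions cannot be set against the hg19 peaks, so which of the starts lies nearer to the peak is not given. Capitals mark matches on either strand to CATG, to CAAG (CTTG on the other strand), to the GC box GGGCGG and to the TATA box TATAAA.
MALAT1 upstream start: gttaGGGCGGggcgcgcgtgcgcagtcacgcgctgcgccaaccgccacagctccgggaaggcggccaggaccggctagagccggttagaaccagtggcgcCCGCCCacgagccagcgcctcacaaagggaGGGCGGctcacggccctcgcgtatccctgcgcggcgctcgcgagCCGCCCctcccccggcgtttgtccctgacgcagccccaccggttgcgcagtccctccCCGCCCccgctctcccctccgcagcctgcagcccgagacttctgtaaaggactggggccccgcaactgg
MALAT1 downstream start: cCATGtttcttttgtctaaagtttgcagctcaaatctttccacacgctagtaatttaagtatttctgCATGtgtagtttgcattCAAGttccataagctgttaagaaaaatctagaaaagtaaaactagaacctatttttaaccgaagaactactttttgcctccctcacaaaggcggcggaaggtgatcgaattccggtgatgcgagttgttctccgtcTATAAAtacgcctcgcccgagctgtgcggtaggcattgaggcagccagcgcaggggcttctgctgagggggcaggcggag
The upstream sequence is rich in G and C (73.7%, against a median of 58.7% over 35116 start sequences) and holds 37 CpG pairs, against a median of 14. It has 5 matches to GGGCGG, a motif present in 45.0% of all start sequences, and 0 to CATG, CAAG or TATAAA. The downstream sequence has 46.0% G and C and 14 CpG pairs. It holds 2 matches to CATG, the core letters of many p53-family sites (present in 54.9% of start sequences), 1 to CAAG (86.0%) and 1 to TATAAA (11.5%), which begins 30 bases before the start. The p53-family consensus decamer, the 10-base unit of the response element, had 0 matches in either sequence and occurs in 6.63% of start sequences. A match is a description of letters, and whether any match lies in the peak is not known, since these windows were not placed on hg19.

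NEAT1 carried the peak that ranked highest of the 20 by −log10 q-value. Its span was taken as 65190000 to 65213000 on chromosome 11, known to the nearest 1 kb, and the gene is read from the lower coordinate. The strongest peak lay at 65188391 to 65189170, with its summit 1.21 kb before the start. It had 284 ChIP reads over the summit, a fold of 78.8 over the control and rank 2 of the list, at a −log10 q-value of 441. Fold is the ratio of ChIP pileup to local background, and reads were solved from a peak's fold and p-value. No peak of the list had more than 284 reads, 5 had that number, and it is 2 times the fragment length of 142 bp. Whether the list is capped there was not tested, so the reads and folds of the highest peaks may be lower limits and no interval is given for them. Intervals on the reads of other peaks are 95% Poisson intervals and cover counting error only.

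The strongest NEAT1 peak was not alone: 4 summits lay ahead of the gene, spread over 3.38 kb from the first to the last. The count of 5 at NEAT1 was the same within 5 kb of the span and rose to 13 within 50 kb. The wider window reaches past the start of the MALAT1 window, so the 13 include peaks that are also counted at MALAT1. The nearest to the start, at 65189566 to 65190451, was the widest of the 20 peaks at 886 bp and reached over the start. Its summit lay 0.241 kb before the start, which the 1 kb precision of the span does not separate from the start itself. It had 91 reads (73.3 to 112), a fold of 25.9 and, on the −log10 scale, a q-value of 98.5. The peak farthest ahead, at 65186178 to 65186799, had a summit 3.62 kb before the start, 87 reads (69.7 to 107) and a fold of 25.1. The intervals of these flanking peaks overlap each other, and both had fewer than 284 reads.

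The weakest NEAT1 peak lay between them. It spanned 65187502 to 65187654, 2.41 kb before the start, with 27 reads (17.8 to 39.3), a fold of 7.69 and, on the −log10 scale, a q-value of 15.1. The last peak was the only NEAT1 summit inside the gene, and it is named after its values were seen. It lay at 65208431 to 65208770, 18.6 kb after the start and 4.38 kb before the end of the span, with 67 reads (51.9 to 85.1) and a fold of 19.5. The 18.9 kb of the gene between this summit and the one at the start held no other, and neither did the 20 kb after the gene.

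**Figure D1:**
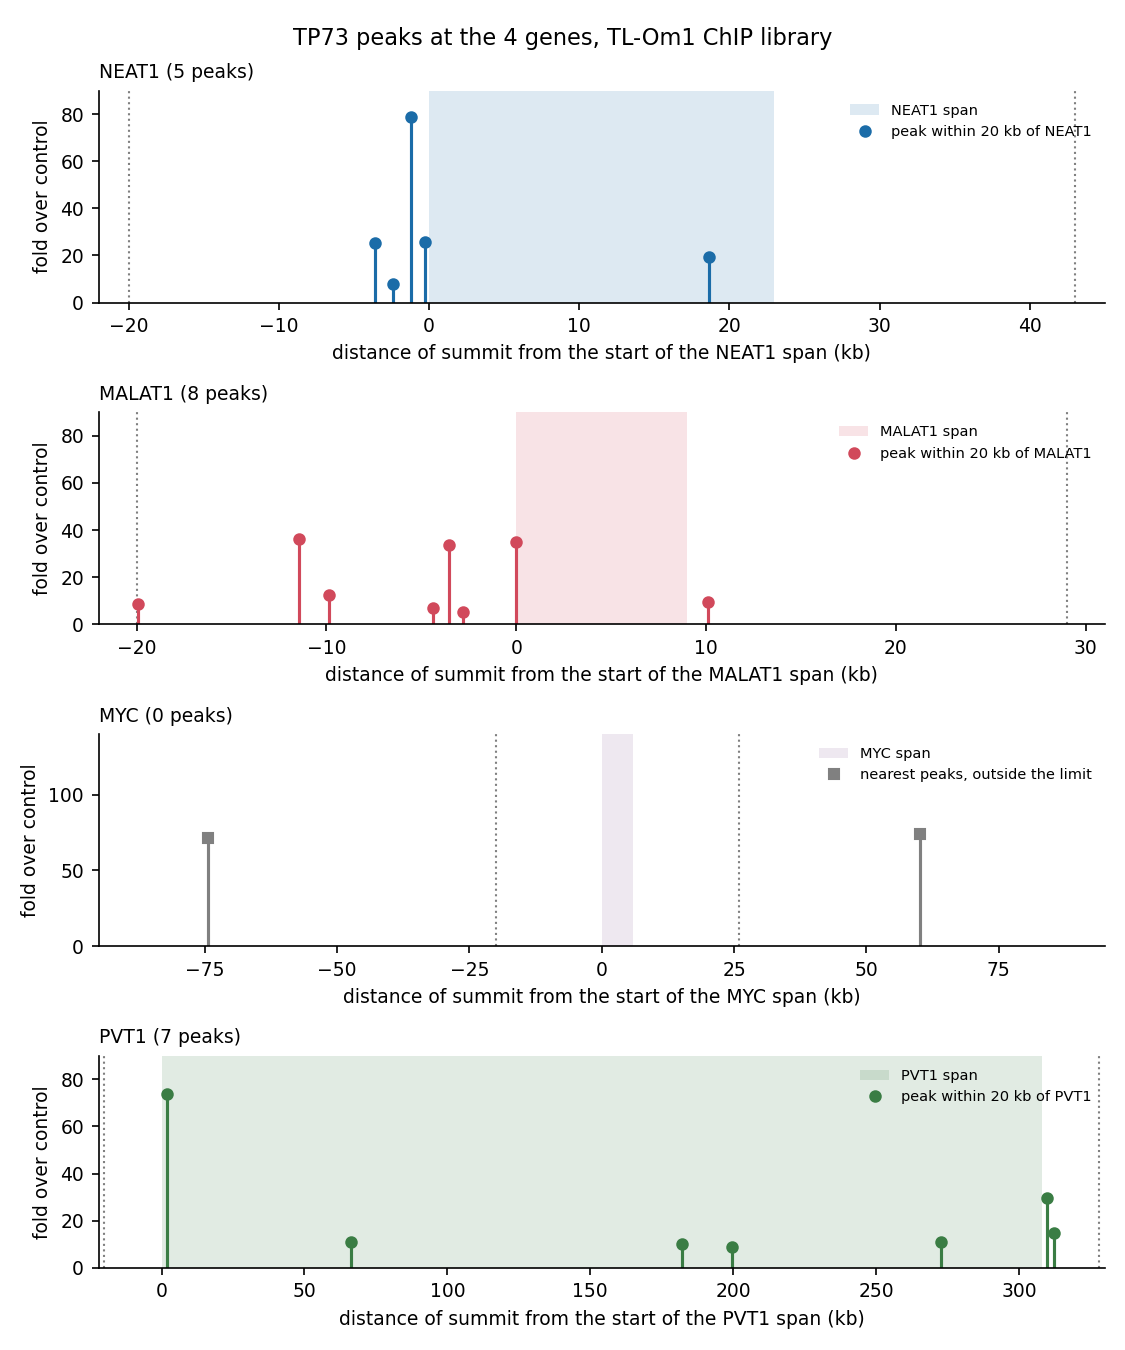
Fold enrichment over the control (vertical axis) of each peak against the distance of its summit from the start of the gene span in kb (horizontal axis), for NEAT1, MALAT1, MYC and PVT1. Shaded areas are the gene spans, dotted lines the limits of 20 kb, circles the peaks of the gene and grey squares the nearest peaks to MYC, which lie outside its limits; the NEAT1 peaks gather just before the start, the MALAT1 peaks lie mostly before the gene, and the highest PVT1 peak (fold 73.9) sits 2.02 kb after the start.

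MALAT1 had 8 peaks, none as high as the leading peak of NEAT1 or PVT1. Its span was taken as 65265000 to 65274000 on chromosome 11. Summits of 7 peaks preceded the given start, 1 followed the end and 0 lay inside. The count of 8 depends on the limits: 5 peaks lay within 5 kb of the span, against 7 at PVT1, and 4 had a fold of at least 10, against 5 at PVT1. The strongest peak lay at 65253358 to 65253671, 11.5 kb before the start, with 125 reads (104 to 149), a fold of 36.1 and, on the −log10 scale, a q-value of 153. The second, at 65264735 to 65265298, reached over the start, and its summit lay 0.021 kb before it, within the precision of the span. This peak over the start had 121 reads (100 to 145), a fold of 34.9 and, on the −log10 scale, a q-value of 148. The third lay at 65261328 to 65261631, 3.52 kb before the start, with 116 reads (95.9 to 139) and a fold of 33.5.

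These 3 MALAT1 peaks are not ordered here, since the reads of each lie within the intervals of the others. The other 5 had 25 to 43 reads and folds of 5.08 to 12.6, so the MALAT1 peaks fell into a stronger and a weaker set with no value between 43 and 116 reads. The weakest lay at 65262099 to 65262262, 2.80 kb before the start, with 25 reads (16.2 to 36.9), a fold of 5.08 and, on the −log10 scale, a q-value of 8.99. It ranked 18737 of 18908. Its control background was 4 reads per 142 bp, above the genome-wide level of 2.41, so its fold is lower than its reads alone would give. It stood 0.723 kb from the summit of the third peak.

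The peak farthest ahead of MALAT1 lay at the edge of the rule. Its summit, 19.9 kb before the start, was 61 bp inside the limit, and it had 34 reads and a fold of 8.54. The nearest peak outside any limit, 13.7 kb beyond the one after MALAT1, had 31 reads and a fold of 7.81. The nearest outside the limit before NEAT1, at 65153654 to 65154240, was stronger, with 233 reads, a fold of 45.7 and rank 435. NEAT1 and MALAT1 summits did not run into each other: 36.4 kb without a summit lay between the last of NEAT1 and the first of MALAT1.

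PVT1 carried its strong peak near its start and weak ones along its length. The span was taken as 128806000 to 129114000 on chromosome 8. The strongest peak lay at 128807599 to 128808348, with its summit 2.02 kb after the start. It had 257 reads, a fold of 73.9, a −log10 q-value of 394 and rank 60. These reads lie close to the highest value of the list, so they are not ordered against those of the strongest NEAT1 peak. The leading PVT1 peak was also the one nearest to the PVT1 start.

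Inside the rest of PVT1, 4 summits were spaced 17.5 to 116 kb from the one before. They had 36 to 50 reads and folds of 9.03 to 11.1, near the list's medians of 43 reads and 11.3. The weakest of the PVT1 peaks was among them, at 129005349 to 129005672, with 36 reads (25.2 to 49.8) and a −log10 q-value of 22.5. The next strongest PVT1 peak lay past the end of the gene. That peak, at 129115786 to 129116159, had a summit 1.96 kb after the end, 105 reads (85.9 to 127) and a fold of 29.8. It was followed after 2.12 kb by a peak at 129117936 to 129118228 with 75 reads (59.0 to 94.0) and a fold of 14.8. The first of this pair stood above all 4 weak peaks inside the gene beyond counting error. The interval of the second overlaps that of the highest of the 4, which had 50 reads (37.1 to 65.9). Such an overlap does not by itself place the difference within counting error.

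MYC had no peak. No summit lay in its span, taken as 128748000 to 128754000 on chromosome 8, or within 20 kb of it. The nearest summits lay far outside on both sides and belonged to strong peaks. The one before MYC, at 128673480 to 128673960, was 74.3 kb ahead of the start, with a fold of 71.6 and rank 88. The one after was the leading PVT1 peak, 54.0 kb past the end of MYC. The interval between these summits was 134.3 kb, against a median of 48.2 kb between neighbouring summits of the list and 55.7 kb on chromosome 8.

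The absence at MYC was common for a stretch of this size. Of consecutive windows of 46 kb over the autosomes and X, 80.5% held no summit, and on chromosome 8 83.3% held none. Intervals at least as long as the one over MYC made up 27.9% of the list and 29.5% of chromosome 8. The count of 0 is therefore near the background and is not a result about MYC. Sites below the caller's limit, where the weakest peak of the list had 18 reads, would not show.

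**Figure D2:**
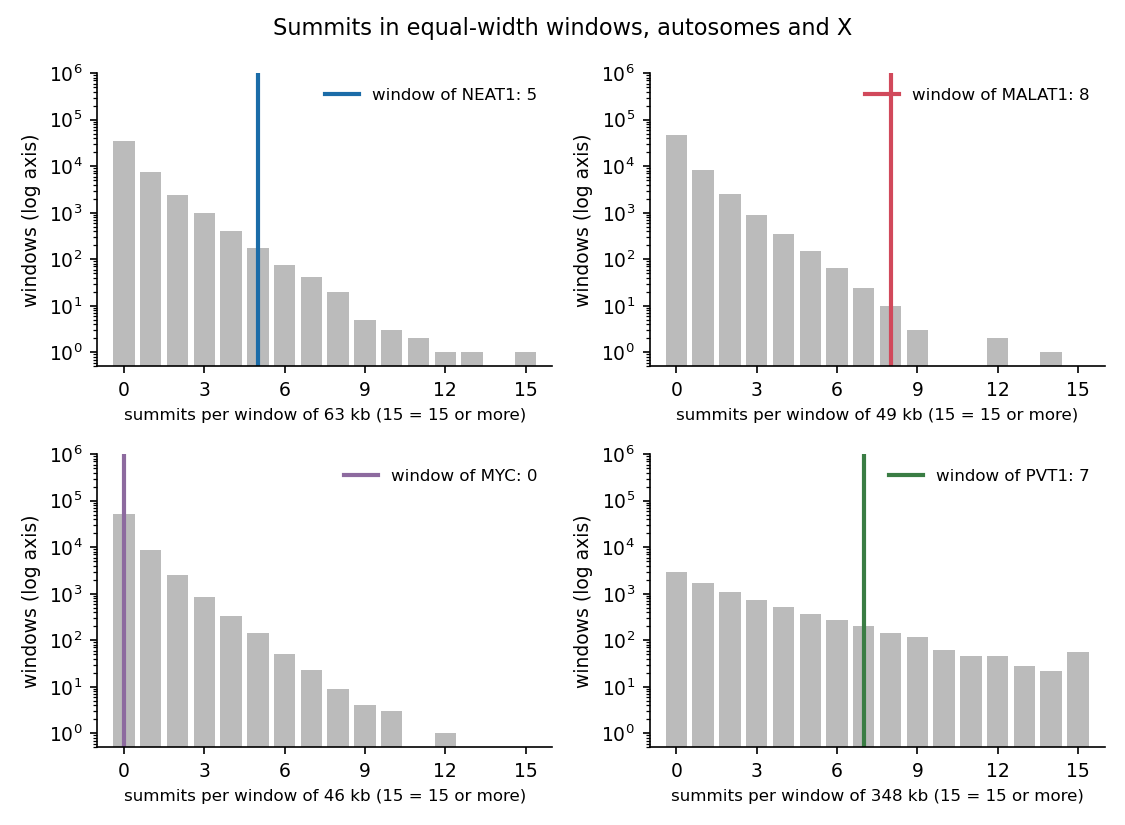
Number of consecutive windows over the autosomes and X (vertical log axis) by the number of TP73 summits they hold (horizontal axis), with windows as wide as the span and limits of each gene. The coloured line marks the gene's own count: 5 for NEAT1 and 8 for MALAT1 lie in the sparse right end, 7 for PVT1 lies within the fall, and 0 for MYC is the commonest value.

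Summits were dense at the genes of chromosome 11. The MALAT1 window of 49 kb held 163 peaks per Mb (95% Poisson interval 70.5 to 322) and the NEAT1 window of 63 kb held 79.4 (25.8 to 185). Chromosome 11 as a whole, from its first to its last summit, had 6.96 per Mb (6.52 to 7.42), and the autosomes and X had 6.41. At least as many summits as at MALAT1 were found in 0.0267% of 59996 windows of its width over the autosomes and X. On chromosome 11 the share was 0.110%. For NEAT1 the shares were 0.705% of 46659 and 0.987%. Summits were also dense past MALAT1: the stretch 100 to 200 kb after the NEAT1 start held 14, none of them a member. With a flank of 5 kb the NEAT1 and MALAT1 windows together were 30.0 times as dense as the autosomes and X, against 18.1 times with 20 kb. For PVT1, whose window is 348 kb wide, the density was 20.1 per Mb (8.09 to 41.4). At least as many summits as at PVT1 were held by 8.66% of windows over the autosomes and X and 6.19% on chromosome 8. The windows were placed on genes picked with these peaks in view, so the shares describe the loci and test nothing.

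The close spacing was found at NEAT1 and MALAT1. Of the 20 peaks, 10 had at least 3 other summits within 10 kb, against 5.84% of all peaks and 4.39% of those on chromosome 11. These 10 were 4 peaks of NEAT1 and 6 of MALAT1, and they were members of the same runs, so each counts its neighbours in turn. No PVT1 peak was among them. The median distance to the nearest summit was 1.22 kb for the 13 peaks of NEAT1 and MALAT1 and 18.1 kb over chromosome 11.

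In strength the 20 peaks ranged over nearly the whole list. The median was 58.5 reads and a fold of 13.7, against 43 reads and a fold of 11.3 over all peaks. A fold of at least 10 was reached by 13 of the 20, where 59.8% of all peaks reach it. A fold of at least 20 was reached by 8 (23.0% of all peaks) and of at least 50 by 2 (3.54%), the leading peaks of NEAT1 and PVT1. By gene, the median fold was 25.1 at NEAT1, 11.03 at MALAT1 and 11.1 at PVT1. The medians of MALAT1 and PVT1 are thus close to that of the list. Because fold and rank were part of the choice of genes, nothing is read from these counts.

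**Figure D3:**
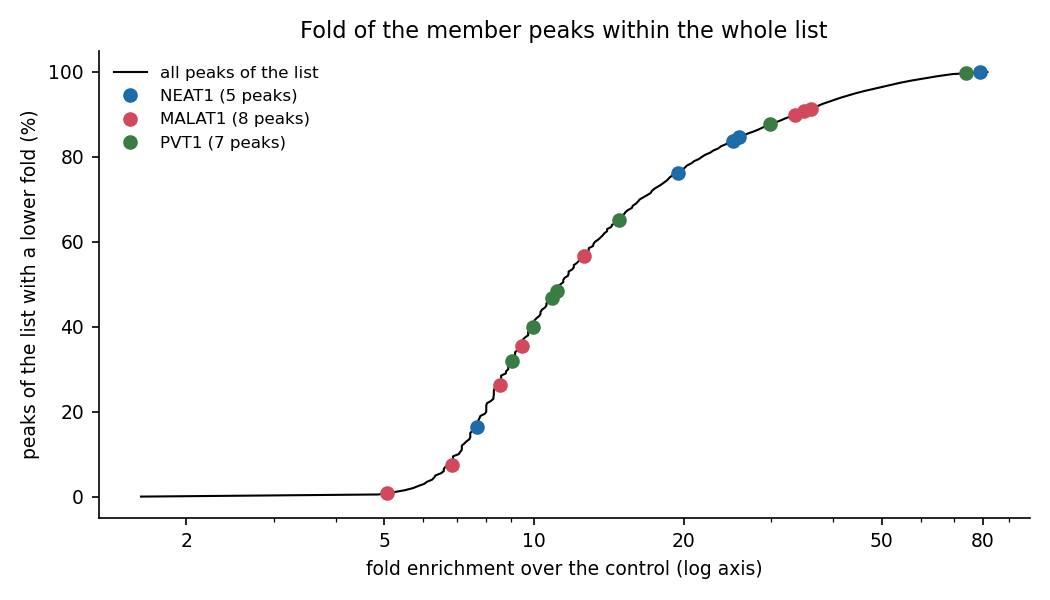
Fold enrichment over the control (horizontal log axis) of the 20 peaks, against the percentage of all 18908 peaks with a lower fold (vertical axis); the black line is the whole list. The peaks run from a fold of 5.08 at MALAT1, near the bottom of the list, to 78.8 at NEAT1 and 73.9 at PVT1, near its top, and the 3 strong MALAT1 peaks lie together between 33.5 and 36.1.

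Wide peaks were found among the strong and the weak. At least 500 bp were covered by 6 of the 20, against 8.85% of all peaks, and 3 of these 6 lay ahead of NEAT1. The others were the leading PVT1 peak at 750 bp, the peak over the MALAT1 start at 564 bp and a weak MALAT1 peak of 557 bp with 43 reads. The widest, at the NEAT1 start, had its summit 21.8% of the way along, towards the strongest peak. Width and fold both derive from the caller's pileup.

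The control background was above the genome-wide level at 12 of the 20 peaks, with a median of 2.44 against 2.41 over all peaks. It stood at the genome-wide level of 2.41 reads per 142 bp, the lowest the caller used, at 8 peaks (40.0%, where 51.9% of all peaks do). The others had local values up to 4 reads per 142 bp. At NEAT1 it ran from 2.41 to 2.56, so the differences in fold among the NEAT1 peaks follow their ChIP reads. At MALAT1 the 3 strong peaks all stood at the genome-wide level, and the 3 peaks with raised background (3 to 4 reads) were among the weak ones. At PVT1, 3 peaks had 3 to 4 control reads per 142 bp at the summit itself, and the leading peak stood at the genome-wide level.

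**Figure D4:**
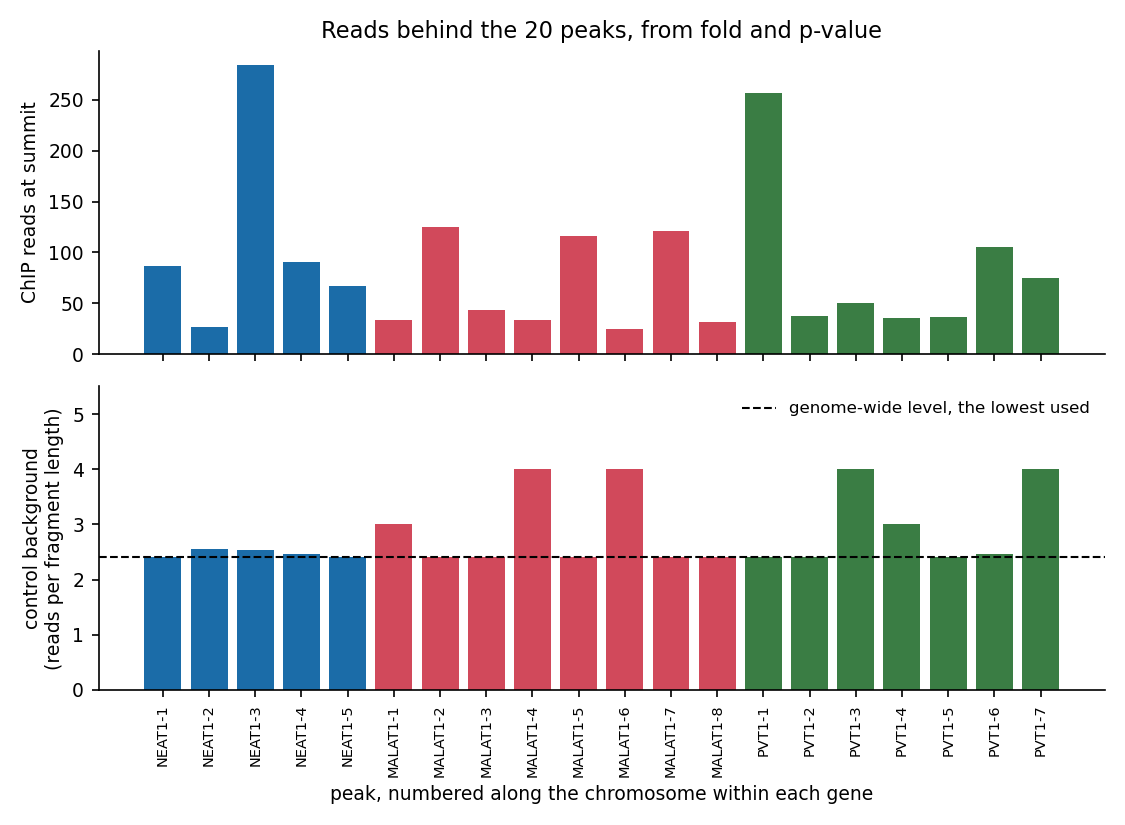
ChIP reads over the summit (upper panel) and control background in reads per fragment length of 142 bp (lower panel) of the 20 peaks, numbered along the chromosome within each gene, as recovered from fold and p-value. NEAT1-3 (284 reads) and PVT1-1 (257) stand highest, MALAT1-2, MALAT1-5 and MALAT1-7 share a level of 116 to 125, and the background stays between the genome-wide level (dashed line, 2.41) and 4.

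More summits surrounded NEAT1 than MYC, and both neighbourhoods were denser than their chromosomes. Within 1 Mb on either side of the NEAT1 start there were 87 summits, 37 before and 50 after, or 43.5 per Mb against 6.96 on chromosome 11. Around the MYC start there were 30, of which 11 lay before and 19 after, or 15 per Mb against 5.37 on chromosome 8. A fold of at least 20 was reached by 25 of the 87 (28.7%) and 6 of the 30 (20%), against 23.0% of all peaks. A fold of at least 50 was reached by 3 (3.45%) and 4 (13.3%), against 3.54% of all peaks. Around NEAT1 all 3 lay before the gene, at 300.3, 40.2 and 1.21 kb from the start. Around MYC, 1 lay before the gene and 3 after it, of which the nearest was the leading PVT1 peak. The farthest 2 lay beyond PVT1, at 129196773 to 129197404 with a fold of 52.4 and at 129286185 to 129286898 with a fold of 75.6 and rank 44.

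**Figure D5:**
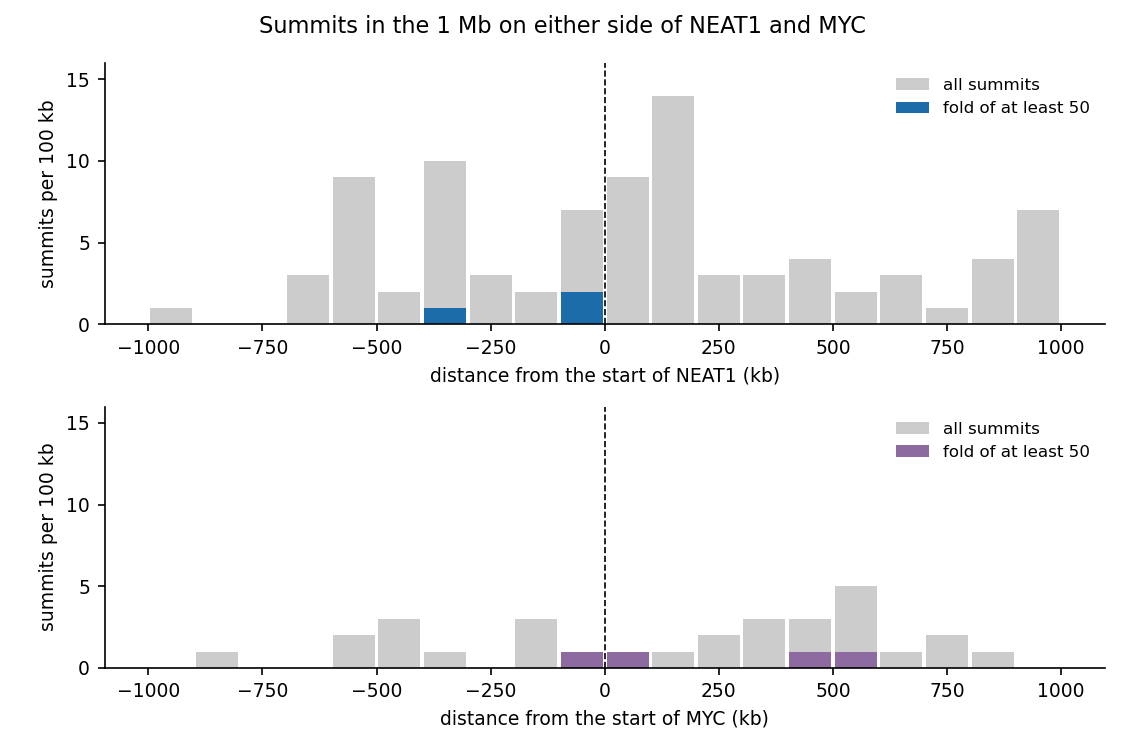
TP73 summits in steps of 100 kb (vertical axis, grey) against the distance from the start of NEAT1 (upper panel) and of MYC (lower panel) in kb, with those of a fold of at least 50 in colour. The NEAT1 side reaches 14 summits in a step, 100 to 200 kb after the start and with no member peak in it. No step around MYC holds more than 5, and coloured peaks stand on both sides of MYC but only before NEAT1.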

How the data were processed

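TP73 ChIP-seq of TL-Om1 cells was available as 1 peak list from 1 ChIP library. Bowtie2, SAMtools and MACS2 2.1.1.2016030 were used with hg19, per the submitters' processing notes; run settings and duplicate handling were not given in the sources used here. The deposited list gives each peak's fold (a ratio over the control), the −log10 of its p-value and q-value, a score (not used) and the summit offset. The text IgG stands in all 18908 peak names, although the labelled control is whole cell extract, so the control library is not settled here.

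Gene spans are those of the selection rule, to 1 kb. Positions count from 1. Members and lists were chosen with earlier results of these data known. The text gives in full the top 3 peaks of each gene by −log10 q-value, the one nearest its start and the weakest, and the rest as ranges. The planned comparison with other p53-family genes needs an hg19 annotation and was not run.

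Reads were solved from (pileup + 1) / (background + 1) = fold and the Poisson tail of the whole pileup. All 18908 peaks had a solution, 101 more than 1, none of them a member. With 0.975 units per ChIP read, 100% of 8987 peaks not used to fit that step gave whole reads within 0.01. The solver was tested on simulated data. Read totals are not part of the list. Densities use first to last summit. Tools were matplotlib 3.10.9, scipy 1.17.1, numpy 2.4.6 and pandas 2.3.3 under Python 3.11.15. Other limits on peaks, overlap, merging and flank were tried.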

Additional observations from a re-analysis of the deposited data

How the results depend on the processing

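Of 85 values recomputed under the alternatives, 76 stayed within 1.5 times, within counting error or equal, and 9 moved. Some of the 76 could not move, such as a count of 0 or a highest q-value under a limit that only removes weaker peaks. A fold of at least 10 left 13 of the 20 peaks, 4 of the 8 at MALAT1 and 3 of the 5 inside PVT1, because weak peaks are removed. Counting any overlap of a peak in place of its summit put 2 peaks in the NEAT1 span and 1 in the MALAT1 span, from peaks that reach over the start. A flank of 5 kb left 5 peaks at MALAT1, with a highest −log10 q-value of 148.3. A flank of 50 kb gave 13 peaks at NEAT1 and a highest −log10 q-value of 168.8 at MALAT1. At this flank the NEAT1 and MALAT1 windows overlap, and peaks in both count under both genes and once in the total of 25. MYC kept 0 peaks under all 6 of these settings on peaks and flanks. Only overlap counting and the flank of 50 kb could have added a peak there. A −log10 q-value of at least 10 or merging peaks closer than 500 bp moved no value beyond these bounds. The density at NEAT1 and MALAT1 together, relative to the autosomes and X, ran from 15.3 to 30.0 times over the 6 settings, against 18.1, with the flank of 5 kb giving the highest value and 50 kb the lowest. Leaving out a library is not possible with a single one in each group. No paired analysis was possible because each group has 1 library and the values come from no test. The weakest peak of the list had 18 ChIP reads, and uncalled sites were not analysed here.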

Other observations

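The control background differed between the 2 neighbourhoods. Of the 30 peaks within 1 Mb of the MYC start, 33.3% stood at the genome-wide background, against 416 of the 785 peaks on chromosome 8. Of the 87 peaks within 1 Mb of the NEAT1 start, 65.5% did, against 52.7% on chromosome 11. The median was 40 ChIP reads around MYC and 43 around NEAT1. The cause was not tested.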
